A study of Homo sapiens with 24 samples.

Results

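PMEPA1, NEDD9, DACT1, NOX4, FAP, LTBP2, TGFBI, SERPINE2 and SKIL are 9 genes listed as direct targets of transforming growth factor beta (TGF beta), and they are described here over 24 arrays of the human ovarian cancer line A2780. They were listed by name, with 1 probe set per gene, that of the highest mean over the 24 arrays, and they are 9 of 11940 measured genes. The genes were chosen by their difference between TGF beta and starved arrays of this series, so that comparison is given for them as a description with no test.

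The arrays were 1-colour Affymetrix expression arrays, and each line gave 12 of them. The first line expressed Rab25, a small GTPase of recycling endosomes, and its control carried the empty vector pcDNA. In each line, 2 arrays each were of cells treated with TGF beta at 5 ng/ml, with EGF or IGF, both at 10 ng/ml, or with 5% fetal bovine serum (FBS), and 4 arrays were of serum-starved cells. All cells had been starved of serum for 8 h, and every group had arrays in experiments 1 and 2. The labels disagree on the exposure: 24 h in experiment 2 but 8 h in experiment 1 per the treatment protocol, and 24 h throughout per the source names. Each line was a single transfected line, so a difference between the lines holds anything else that set these lines apart. Nothing in the labels says that replicates came from separate cultures, and p-values then measure only the spread between these samples.

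TGF beta binds a pair of receptor kinases, which phosphorylate SMAD2 and SMAD3. These join SMAD4, enter the nucleus and bind short elements near target genes, often together with other factors. Some targets damp the pathway itself, and others encode matrix proteins, proteases, protease inhibitors and regulators of adhesion. Ovarian epithelial cells are growth inhibited by TGF beta, and many ovarian cancers have lost that inhibition while still responding with changes in matrix and adhesion genes.

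The promoters of the members with the largest difference between TGF beta and starved arrays are shown because the short SMAD element CAGAC can be read in them. They are the 250 bases before a RefSeq transcript start on GRCh38.p14, for NEDD9 chr6:11232669-11232918 on the minus strand, for DACT1 chr14:58633811-58634060 on the plus strand and for PMEPA1 chr20:57710578-57710827 on the minus strand. NEDD9 had 3 such windows, DACT1 3 and PMEPA1 4, and the window with the most matches was chosen after the matches were counted. Sequences run 5′ to 3′ on the gene's strand, and capitals mark CAGAC or, on the other strand, GTCTG.
NEDD9: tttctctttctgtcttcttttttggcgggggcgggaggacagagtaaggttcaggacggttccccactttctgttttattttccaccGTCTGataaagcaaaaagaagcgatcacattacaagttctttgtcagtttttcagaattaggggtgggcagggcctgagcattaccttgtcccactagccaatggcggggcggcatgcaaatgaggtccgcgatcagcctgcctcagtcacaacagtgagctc
DACT1: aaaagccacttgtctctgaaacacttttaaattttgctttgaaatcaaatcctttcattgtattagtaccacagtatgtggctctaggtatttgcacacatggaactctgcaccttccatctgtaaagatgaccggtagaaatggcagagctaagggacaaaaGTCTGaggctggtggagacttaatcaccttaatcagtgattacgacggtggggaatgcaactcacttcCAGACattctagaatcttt
PMEPA1: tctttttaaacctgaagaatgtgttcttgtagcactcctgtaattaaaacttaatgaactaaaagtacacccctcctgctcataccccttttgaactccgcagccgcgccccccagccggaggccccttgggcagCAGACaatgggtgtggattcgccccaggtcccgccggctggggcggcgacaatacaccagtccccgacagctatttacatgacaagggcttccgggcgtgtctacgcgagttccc
The match began 163 bases before the start in NEDD9, 19 and 87 bases before it in DACT1 and 115 bases before it in PMEPA1. FAP had no entry in the promoter set used. Over the 18 windows of the other 8 members, 7 held CAGAC on either strand, against 38.0% of all 35116 windows. Windows of the same gene can overlap, as in NEDD9. The inverted pair GTCTAGAC was in 0 of the 18 windows and in 0.182% of all windows. The GC-rich SMAD elements GGCGC and GGCCG were in 11 windows each, against 44.5% and 44.7% of all windows, and the AP-1 motif TGANTCA was in 0, against 6.57%. These motifs can overlap one another, and a match is a string of letters and not a bound site.

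Array medians over all non-control probe sets ran from 6.92 to 7.23 on the log2 scale. RAB25 averaged 8.65 ± 0.30 in the Rab25 line and 5.26 ± 0.25 in the pcDNA line (log2 value, SD, n = 12 arrays each). KRT8, KRT18, PAX8 and VIM were high on all arrays, and CDH1 and MUC16 low on all. The 2 Rab25 FBS arrays differed from the others in some of the listed fibroblast and blood cell markers. On both, 5 of 11 fibroblast markers and 7 of 10 blood cell markers were above their level on all other 22 arrays. The share of all genes above in this way was not computed, so these counts only describe the listed markers. The fibroblast markers DCN, PDGFRA, PDGFRB, THY1, FBLN1 and DPT lay within the range of the other arrays. So did the blood cell markers CD3D and ITGAM, and HBA1 was above it in experiment 2 only. Of the fibroblast markers above it, COL1A1, COL1A2, COL3A1 and LUM had wide margins. MFAP5 had a narrow one (5.63 and 5.33, against at most 5.31). Among the blood cell markers the margin was narrow for CD68 (5.55 and 5.64, against at most 5.53). It was also narrow for PTPRC (5.68 and 5.70, against at most 5.56) and HBB (6.00 and 5.94, against at most 5.75). For CD14 (6.35 and 5.54, against at most 5.45) it was narrow in experiment 2. The margin was wide for CD74 (9.66 and 7.66, against at most 5.97) and TYROBP (6.59 and 6.98, against at most 5.41). FCER1G was at 7.83 and 8.12, against at most 7.42. The mean of the fibroblast markers was 8.00 and 8.81 on the Rab25 FBS arrays, against 6.51 to 7.01 on the others, and that of the blood cell markers was 6.31 and 6.50, against 5.52 to 5.73. The epithelial markers KRT19 (9.95) and EPCAM (8.49) were high on the Rab25 FBS array of experiment 1, against at most 5.41 and 5.29 on the 22 others. The part of these markers in the results with FBS was not tested, and values without both arrays are given beside those results where they can be had.

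Under TGF beta the mean of every one of the 9 members was higher than under any other condition. The difference from starved cells, averaged over both lines with the experiment as a term, was largest for NEDD9 (log2 difference 2.38 ± 0.29, SE), followed by DACT1 (2.07 ± 0.22), PMEPA1 (2.07 ± 0.16), FAP (1.92 ± 0.25), NOX4 (1.69 ± 0.20), TGFBI (1.29 ± 0.16), SERPINE2 (0.88 ± 0.12), LTBP2 (0.64 ± 0.08) and SKIL (0.20 ± 0.21). In this comparison 1.6% of all genes were called, 0.846% higher and 0.754% lower, at an adjusted p under 0.05. Among the 11940 genes ordered by this difference, NEDD9, DACT1, PMEPA1, FAP and NOX4 held ranks 1 to 5, TGFBI rank 13, SERPINE2 rank 29, LTBP2 rank 60 and SKIL rank 360. For 5 of the 9 members all 4 TGF beta arrays lay above all 20 other arrays, which was so for 0.218% of all genes, and these values describe how the members were chosen.

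**Figure D1:**
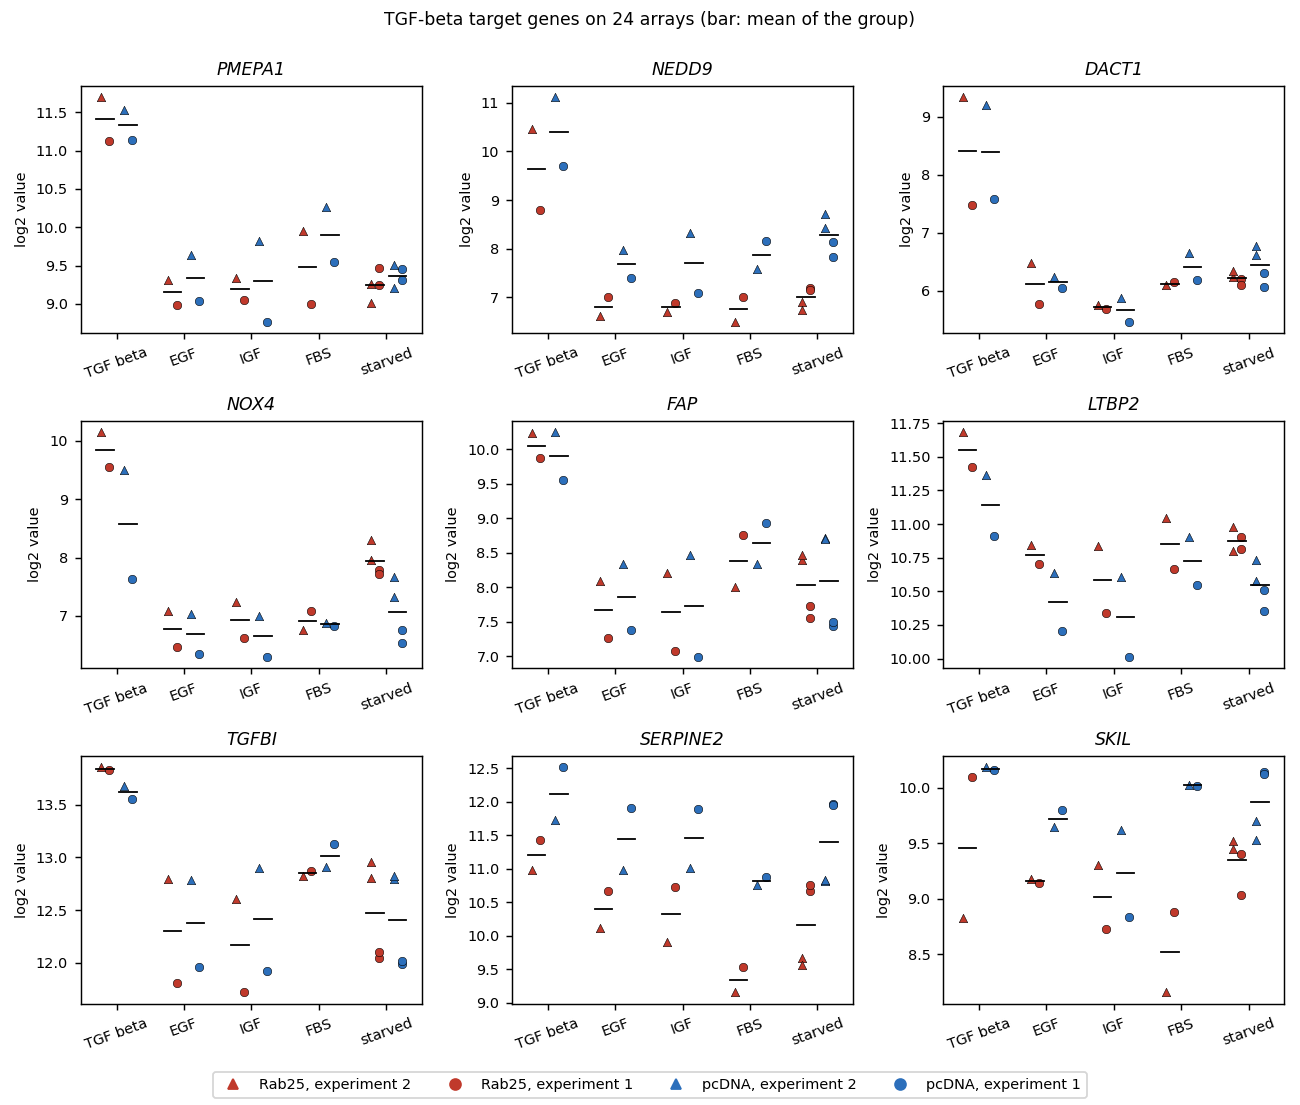
Log2 expression value of each of the 9 members on every array, by condition, with lines by colour, experiments by symbol and the group mean as a bar. In PMEPA1, NEDD9, DACT1, FAP and TGFBI all 4 TGF beta arrays lie above all 20 others, and in NOX4, LTBP2, SERPINE2 and SKIL they overlap.

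PMEPA1 and SKIL encode proteins that act on SMAD signalling. PMEPA1, a membrane protein that binds SMAD2 and SMAD3 and limits their activation, had log2 values of 11.70 (experiment 2) and 11.13 (experiment 1) in Rab25 cells with TGF beta, against 9.02, 9.26, 9.25 and 9.47 in starved Rab25 cells. In pcDNA cells it had 11.53 and 11.14 with TGF beta, against 9.51, 9.21, 9.45 and 9.31 in starved cells. The lowest TGF beta array (11.13) was well above the highest of the other 20 arrays (10.27), which was a pcDNA FBS array. SKIL, which encodes the SMAD co-repressor SnoN, had 8.82 (experiment 2) and 10.09 (experiment 1) in Rab25 cells with TGF beta, against 9.44, 9.52, 9.03 and 9.40 in starved Rab25 cells. In pcDNA cells it had 10.18 and 10.16, against 9.70, 9.53, 10.14 and 10.12. The Rab25 array of experiment 2 was below all 4 starved Rab25 arrays, and the other 3 TGF beta arrays were above the starved mean of their own line and experiment. Without the Rab25 TGF beta array of experiment 1 the SKIL difference was -0.12, and in experiment 2 alone it was -0.05, against 0.45 in experiment 1 alone.

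SKIL has 3 probe sets on the array and they disagreed. The probe set described, 217591_at, gave a log2 difference of 0.20, whereas 206675_s_at, of lower mean level, gave 0.95 and 215889_at gave -0.12. On 206675_s_at the differences were 1.85 in experiment 2 and 0.47 in experiment 1 in Rab25 cells, and 1.31 and 0.17 in pcDNA cells. NEDD9 has a further probe set, 202150_s_at, which gave 1.04, below the 2.38 of the probe set described and in the same direction. These probe sets were looked at after the data were seen.

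NEDD9 and DACT1 encode cytoplasmic scaffold proteins. NEDD9, a Cas family scaffold that links integrins and kinases to cell movement, had 10.46 (experiment 2) and 8.80 (experiment 1) in Rab25 cells with TGF beta, against 6.91, 6.75, 7.19 and 7.16 in starved Rab25 cells. In pcDNA cells it had 11.12 and 9.69, against 8.42, 8.72, 8.13 and 7.83. The lowest TGF beta array, that of Rab25 cells in experiment 1 (8.80), was just above the highest of all starved arrays, a pcDNA array of experiment 2 (8.72). DACT1, a Dishevelled binding regulator of WNT signalling, had 9.35 and 7.48 in Rab25 cells, against 6.24, 6.34, 6.20 and 6.10 in starved Rab25 cells. It had 9.20 and 7.59 in pcDNA cells, against 6.61, 6.78, 6.32 and 6.06. The TGF beta arrays of both lines were close to each other within an experiment and far apart between experiments. DACT1 lay in the lowest 40% of genes by mean value, the only member that did.

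TGFBI and FAP encode proteins of the matrix and the cell surface. TGFBI, a secreted matrix protein that binds collagens and integrins, had 13.85 (experiment 2) and 13.83 (experiment 1) in Rab25 cells with TGF beta, against 12.80, 12.96, 12.05 and 12.10 in starved Rab25 cells. In pcDNA cells it had 13.68 and 13.56, against 12.79, 12.83, 11.99 and 12.02. The TGF beta level was nearly the same in both experiments, while the starved level was not. FAP, a cell surface serine protease best known from activated fibroblasts, had 10.23 and 9.87 in Rab25 cells, against 8.39, 8.46, 7.56 and 7.73 in starved Rab25 cells. It had 10.25 and 9.56 in pcDNA cells, against 8.72, 8.70, 7.44 and 7.50. The mean of the fibroblast markers was 6.69 and 6.79 on the Rab25 TGF beta arrays and 6.72 and 6.86 on the pcDNA ones, against 6.64 to 7.01 on starved arrays. Its relation to FAP was not tested.

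SERPINE2, a secreted inhibitor of thrombin, urokinase and plasmin, had 10.98 (experiment 2) and 11.42 (experiment 1) in Rab25 cells with TGF beta, against 9.66, 9.56, 10.67 and 10.76 in starved Rab25 cells. In pcDNA cells it had 11.72 and 12.51, against 10.82, 10.83, 11.96 and 11.95. Each TGF beta array was above the starved arrays of its own line and experiment, but the pcDNA starved arrays of experiment 1 were above both Rab25 TGF beta arrays. LTBP2, a matrix protein of the fibrillin and latent TGF beta binding protein family, had 11.68 and 11.42 in Rab25 cells, against 10.80, 10.98, 10.90 and 10.82 in starved Rab25 cells. It had 11.37 and 10.91 in pcDNA cells, against 10.58, 10.73, 10.51 and 10.36. NOX4, an NADPH oxidase that makes hydrogen peroxide, had 10.14 and 9.54 in Rab25 cells, against 8.31, 7.96, 7.79 and 7.72 in starved Rab25 cells. It had 9.50 and 7.63 in pcDNA cells, against 7.33, 7.67, 6.54 and 6.75. The pcDNA array of experiment 1 was the lowest of the 4 TGF beta arrays of NOX4 by far, and was below all 4 starved Rab25 arrays.

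Pairs of starved arrays from 1 line in 1 experiment differed by 0.01 to 0.37 over all 9 members, which is the spread within an experiment only. Between the experiments (2 minus 1) the starved level differed by -1.12 (SERPINE2) to 1.01 (FAP). Across the 24 arrays, DACT1 (r = 0.94), PMEPA1 (r = 0.93), FAP (r = 0.92) and NEDD9 (r = 0.91) followed the mean of the members' standardised values most closely, and SKIL (r = 0.48) and SERPINE2 (r = 0.37) least. Each member is part of that mean, and the arrays share lines, conditions and experiments. The pair most alike was FAP and TGFBI (r = 0.97), and the pair least alike was LTBP2 and SERPINE2 (r = -0.21). Of all other genes, LHX1 (r = 0.91), SGK1 (r = 0.90), NUAK1 (r = 0.89), EPHA4 (r = 0.89), CYTH1 (r = 0.88) and GPA33 (r = 0.86) were most like the members' mean over the 24 arrays.

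**Figure D2:**
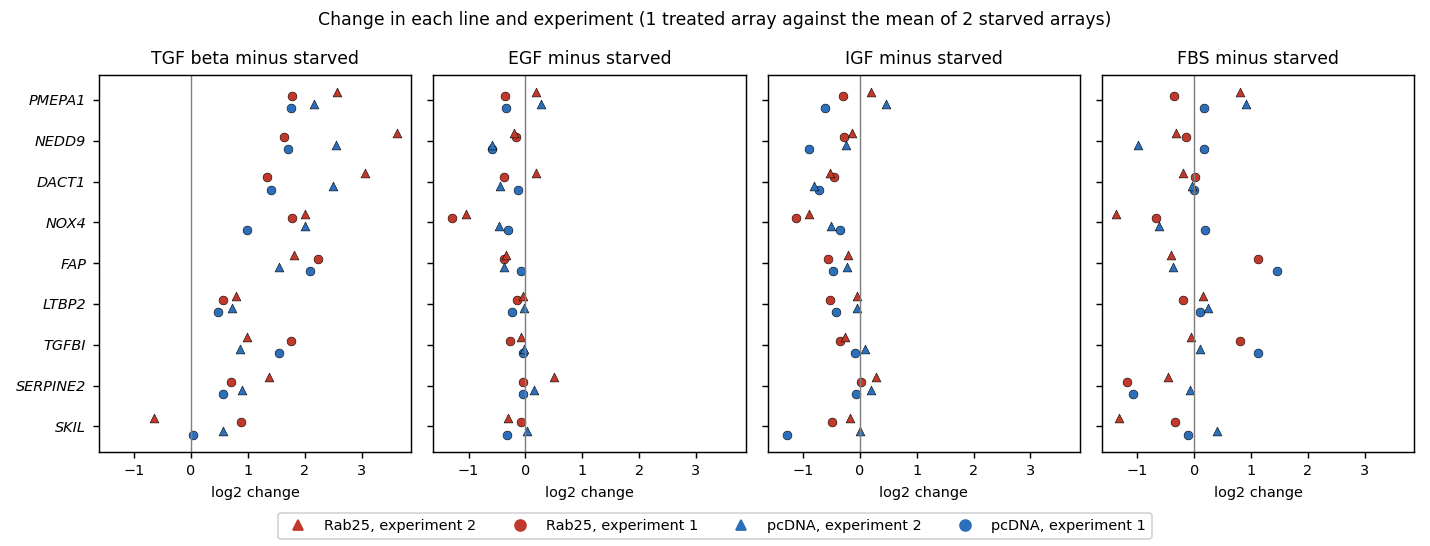
Log2 difference of each treated array from the mean of the 2 starved arrays of its own line and experiment, for the 9 members under each treatment. With TGF beta all differences but that of SKIL in Rab25 cells of experiment 2 are above 0, from 0.03 to 3.62.

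Rab25 and pcDNA cells differed in 5 of the 9 members over all conditions, 2 higher and 3 lower in Rab25 cells, where 24.7% of all genes were called (limma, Benjamini-Hochberg adjusted p under 0.05, 9.14% higher and 15.5% lower). SERPINE2 was lower in Rab25 cells by 2.24-fold (log2 difference -1.16 ± 0.09, SE, adjusted p = 7.4e-08), NEDD9 by 1.99-fold (-0.99 ± 0.20, adjusted p = 0.0015) and SKIL by 1.63-fold (-0.70 ± 0.15, adjusted p = 0.0018). NOX4 was higher by 1.43-fold (0.51 ± 0.14, adjusted p = 0.01) and LTBP2 by 1.23-fold (0.30 ± 0.05, adjusted p = 0.00058). Set against each other within the same condition and experiment, SERPINE2, NEDD9 and SKIL were lower in Rab25 cells in 10 of 10 pairs, LTBP2 was higher in 10 of 10 and NOX4 in 9 of 10. The differences were -0.15 ± 0.11 for PMEPA1 (adjusted p = 0.38), -0.10 ± 0.15 for DACT1 (adjusted p = 0.71), -0.09 ± 0.17 for FAP (adjusted p = 0.78) and -0.04 ± 0.11 for TGFBI (adjusted p = 0.86). These 5 calls also held without both Rab25 FBS arrays and without each array in turn, but that of NOX4 did not without the experiment term (adjusted p = 0.12). The NOX4 difference between the lines was not even over conditions. It was 0.63 (experiment 2) and 1.11 (experiment 1) in starved cells, and 0.65 and 1.91 with TGF beta. With EGF it was 0.05 and 0.11, with IGF 0.23 and 0.33, and with FBS -0.13 and 0.24. The 3 probe sets of SKIL all had lower values in Rab25 cells (-0.70, -0.55 and -0.25), and so did both of NEDD9 (-0.99 and -0.31).

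**Figure D3:**
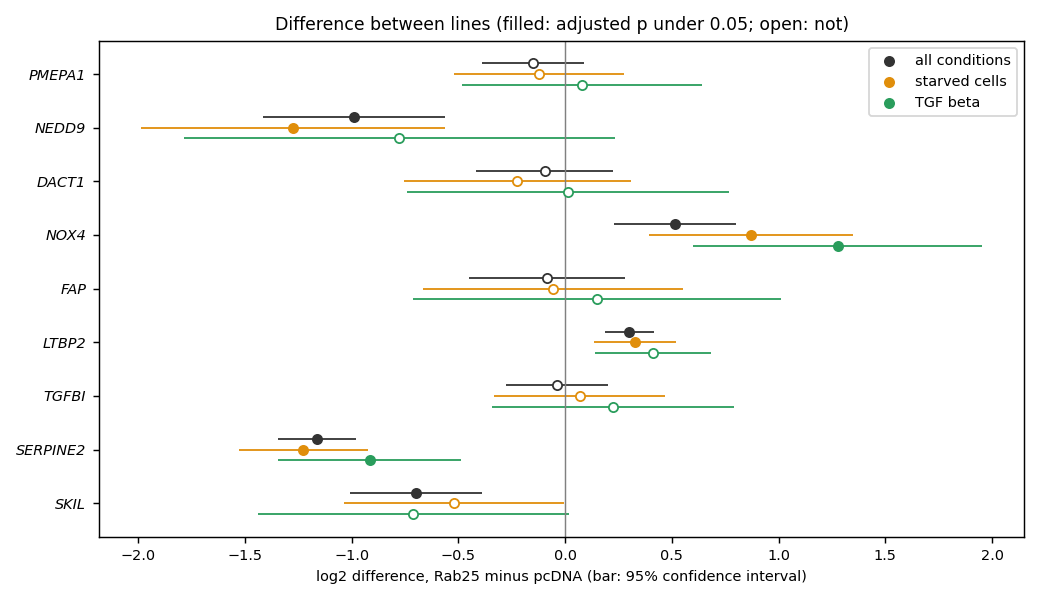
Log2 difference of Rab25 minus pcDNA arrays for each member over all conditions, in starved cells and with TGF beta, with the fitted value as a point (filled where the adjusted p is under 0.05) and its 95% confidence interval as a bar. Over all conditions SERPINE2 (-1.16), NEDD9 (-0.99) and SKIL (-0.70) lie below 0, and NOX4 (0.51) and LTBP2 (0.30) above it.

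In starved cells, with no ligand added, 4 of the 9 members passed between the lines, with 2 of them higher and 2 lower for Rab25, against 14.8% of all genes (5.56% higher and 9.24% lower). SERPINE2 was lower in Rab25 cells (log2 difference -1.23 ± 0.14, SE, adjusted p = 4.3e-05), as was NEDD9 (-1.27 ± 0.34, adjusted p = 0.017). NOX4 (0.87 ± 0.23, adjusted p = 0.015) and LTBP2 (0.33 ± 0.09, adjusted p = 0.022) were higher. The 4 Rab25 and 4 pcDNA arrays did not overlap for 5 members, these 4 and SKIL (-0.52 ± 0.24, adjusted p = 0.17), and 16.9% of all genes had such groups. SERPINE2 differed by -1.21 in experiment 2 and -1.24 in experiment 1, NEDD9 by -1.74 and -0.81, NOX4 by 0.63 and 1.11, and LTBP2 by 0.23 and 0.42. The calls of NEDD9, NOX4 and LTBP2 were lost on leaving out 2, 1 and 4 of the 24 arrays, with log2 differences that stayed between -1.39 and -1.13, between 0.79 and 0.98 and between 0.27 and 0.41. With the median over its 2 probe sets, NEDD9 was at -0.68 (adjusted p = 0.078), and with that over its 3, SKIL passed at -0.79 (adjusted p = 0.022).

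With TGF beta, 2 members differed between the lines, against 2.29% of all genes. SERPINE2 was lower in Rab25 cells (-0.92 ± 0.20, adjusted p = 0.025) and NOX4 higher (1.28 ± 0.32, adjusted p = 0.046). The NOX4 difference was 0.65 in experiment 2 and 1.91 in experiment 1, it ran from 0.59 to 1.97 when single arrays were left out, and its call was lost in 19 of those 24 fits. That of SERPINE2 was lost on leaving out 3 arrays, all treated with TGF beta, and with each array centred on its median (-0.81, adjusted p = 0.055). NEDD9 differed by -0.78 ± 0.48 (adjusted p = 0.52), SKIL by -0.71 ± 0.34 (adjusted p = 0.38) and LTBP2 by 0.41 ± 0.13 (adjusted p = 0.12).

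The size of the TGF beta response did not pass the test for a difference between the lines in any of the 9 members (adjusted p = 1.00 for each), and 0% of all genes passed (limma, 0 of 11940, with 622 genes at an unadjusted p under 0.05). The Rab25 minus pcDNA difference in response was 0.50 for NEDD9 (95% confidence interval -0.74 to 1.73), 0.41 for NOX4 (-0.42 to 1.24), 0.31 for SERPINE2 (-0.22 to 0.84) and 0.24 for DACT1 (-0.68 to 1.16). It was 0.20 for FAP (-0.85 to 1.26), 0.20 for PMEPA1 (-0.49 to 0.89), 0.16 for TGFBI (-0.54 to 0.85), 0.08 for LTBP2 (-0.25 to 0.42) and -0.19 for SKIL (-1.08 to 0.70). The interval of LTBP2 was the narrowest, and those of NEDD9, NOX4, DACT1, FAP and SKIL were wide enough to hold differences of over 1 on the log2 scale. Members lower in Rab25 cells at the start, such as NEDD9 and SERPINE2, were also lower in them with TGF beta in both experiments, and the intervals of the difference in their response held 0.

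EGF, IGF and FBS were compared with the same 8 starved arrays as TGF beta, so the differences share those arrays. With EGF none of the 9 members passed the test, nor did any gene (limma, 0%, with 811 genes at an unadjusted p under 0.05). NOX4 had 7.08 and 6.46 in Rab25 cells with EGF, against the 7.72 to 8.31 of starved Rab25 cells, and 7.03 and 6.35 in pcDNA cells, against 6.54 to 7.67. The NOX4 difference was -0.78 ± 0.20 (SE, adjusted p = 0.36), and those of the other 8 members ran from -0.39 to 0.14. With IGF 0 of the 9 passed, against 2.71% of all genes (1.17% higher and 1.53% lower). NOX4 was at -0.72 ± 0.20 (adjusted p = 0.061), DACT1 at -0.63 ± 0.22 (adjusted p = 0.14), SKIL at -0.49 ± 0.21 (adjusted p = 0.26) and LTBP2 at -0.26 ± 0.08 (adjusted p = 0.091). Without both Rab25 FBS arrays NOX4 passed with IGF at the same difference (-0.72, adjusted p = 0.027).

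With FBS 3 of the 9 members passed, 1 higher and 2 lower, against 17.2% of all genes (6.43% higher and 10.8% lower). SERPINE2 had 9.15 (experiment 2) and 9.53 (experiment 1) in Rab25 cells with FBS, and 10.75 and 10.88 in pcDNA cells, each below the starved arrays of its line and experiment (log2 difference -0.70 ± 0.12, SE, adjusted p = 0.0014). Without both Rab25 FBS arrays, each FBS difference given here was that of pcDNA cells alone and not the mean of both lines. SERPINE2 was then at -0.57 (adjusted p = 0.039). NOX4 had 6.76 and 7.08 in Rab25 cells with FBS, against 7.72 to 8.31 when starved, and 6.89 and 6.83 in pcDNA cells, against 6.54 to 7.67 (-0.62 ± 0.20, adjusted p = 0.039). In pcDNA cells alone NOX4 was at -0.21 (adjusted p = 0.63) and was not called. TGFBI was at 0.49 ± 0.16 (adjusted p = 0.049), and at 0.61 (adjusted p = 0.081) without both Rab25 FBS arrays. Its call was lost in 17 of the 24 fits that left out an array, and that of NOX4 in 9. With array weights the calls of NOX4 (limma, adjusted p = 0.32) and TGFBI (adjusted p = 0.25) were lost. Without the experiment term those of SERPINE2 (adjusted p = 0.25), NOX4 (adjusted p = 0.27) and TGFBI (adjusted p = 0.33) were lost. The other 6 members did not pass: FAP was at 0.45 ± 0.25 (adjusted p = 0.23) and PMEPA1 at 0.38 ± 0.16 (adjusted p = 0.12), and without the Rab25 FBS arrays at 0.55 and 0.53. SKIL was at -0.34 ± 0.21 (adjusted p = 0.29) and turned to 0.15 (adjusted p = 0.80) without them. In experiment 1 FAP had 8.76 on the Rab25 FBS array and 8.93 on the pcDNA FBS array. The fibroblast marker mean was 6.73 and 6.75 on the pcDNA FBS arrays, within the range of the arrays without FBS. A link between FAP and these markers was not tested.

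The response to FBS passed the test for a difference between the lines in 0 of the 9 members, against 0.209% of all genes (0.142% higher and 0.067% lower). SKIL was at -0.98 ± 0.42 (Rab25 minus pcDNA, adjusted p = 0.40) and NOX4 at -0.81 ± 0.39 (adjusted p = 0.47). This comparison needs the Rab25 FBS arrays, on which some fibroblast and blood cell markers were raised, so it has no value without them.

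The experiments differed in the starved level of 5 of the 9 members (against 31.3% of all genes, 14.8% higher and 16.6% lower). In experiment 2 FAP was higher (log2 difference, experiment 2 minus 1, 1.01 ± 0.09, SE, adjusted p = 6.2e-06), as were TGFBI (0.81 ± 0.05, adjusted p = 5.8e-07), NOX4 (0.61 ± 0.17, adjusted p = 0.013) and DACT1 (0.33 ± 0.12, adjusted p = 0.046), and SERPINE2 was lower (-1.12 ± 0.07, adjusted p = 5.4e-07). With the probe set median SKIL passed too (-0.40, adjusted p = 0.023). The calls of DACT1 and NOX4 were lost on leaving out any of 6 and of 2 starved arrays.

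The response to TGF beta differed between the experiments in 2 members, 1 larger and 1 smaller in experiment 2. Of all genes 0.402% differed (0.335% larger and 0.067% smaller). The members were chosen by their TGF beta response in these same arrays, so their count cannot be weighed against that share. DACT1 responded by 2.78 in experiment 2 and by 1.37 in experiment 1 (difference 1.42 ± 0.20, adjusted p = 0.005), with 3.06 and 1.33 in Rab25 cells and 2.51 and 1.40 in pcDNA cells. TGFBI responded by 0.92 in experiment 2 and by 1.66 in experiment 1 (difference -0.73 ± 0.09, adjusted p = 0.0029). Both calls were lost without either Rab25 TGF beta array. NEDD9 had the same size of difference as DACT1 with a wider error (1.42 ± 0.39, adjusted p = 0.24), and passed with the median over its 2 probe sets (1.20 ± 0.23, adjusted p = 0.04). PMEPA1 was at 0.60 ± 0.20 (adjusted p = 0.42), SERPINE2 at 0.50 ± 0.12 (adjusted p = 0.15) and FAP at -0.48 ± 0.16 (adjusted p = 0.41). SKIL was at -0.50 ± 0.34 (limma, adjusted p = 0.84). With the median over its 3 probe sets it passed too, but in the opposite direction. On 206675_s_at, the middle one by mean level, SKIL responded by 1.85 (Rab25) and 1.31 (pcDNA) in experiment 2. In experiment 1 these responses were 0.47 and 0.17. Exposure time, which the labels give in 2 ways, and other differences between the experiments cannot be told apart.

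The response to FBS, compared between the experiments after the data were seen, differed in 4 members, against 22.5% of all genes. FAP was at -0.39 against starved cells in experiment 2 and at 1.29 in experiment 1 (difference -1.68 ± 0.16, adjusted p = 2.9e-05). TGFBI was at 0.02 in experiment 2 and 0.96 in experiment 1 (-0.94 ± 0.09, adjusted p = 3.0e-05), SERPINE2 at -0.27 and -1.13 (0.87 ± 0.12, adjusted p = 0.00038) and PMEPA1 at 0.86 and -0.09 (0.95 ± 0.20, adjusted p = 0.0051). The starved level itself differed (2 minus 1) by 1.01 for FAP, 0.81 for TGFBI, -1.12 for SERPINE2 and -0.12 for PMEPA1. With FBS, TGFBI had 12.82 (experiment 2) and 12.87 (experiment 1) in Rab25 cells and 12.91 and 13.13 in pcDNA cells. The part of the starved level in these differences was not tested. On leaving out either Rab25 FBS array the difference in response rested on the pcDNA FBS arrays, set against the starved arrays of both lines. It was then -1.60 for FAP, -1.03 for TGFBI and 0.99 for SERPINE2, each still called, and 0.84 for PMEPA1, whose call was lost.

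**Figure D4:**
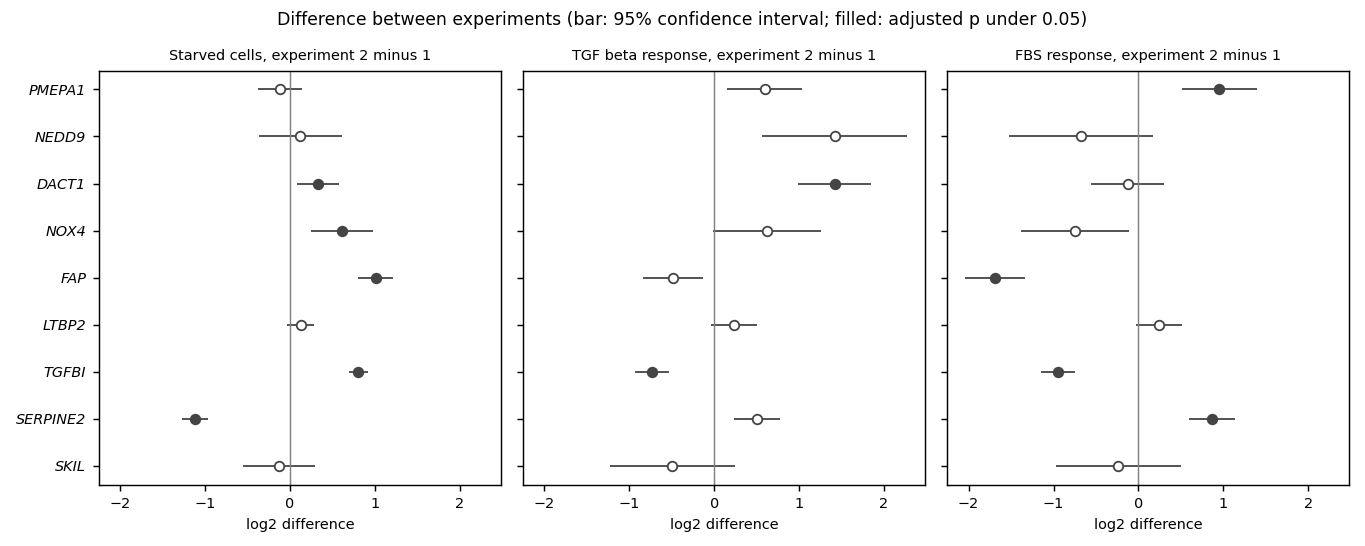
Experiment 2 minus experiment 1 on the log2 scale for each member, for the starved level, the TGF beta response and the FBS response, with 95% confidence intervals as bars and filled points where the adjusted p is under 0.05. DACT1 stands at 1.42 and TGFBI at -0.73 in the TGF beta response, and FAP at -1.68 in the FBS response.

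Of 66 other measured genes in a list of TGF beta targets, 12 rose and 2 fell with TGF beta (limma, adjusted p under 0.05), and their median log2 difference was 0.09, against -0.02 over all genes, of which 0.846% rose and 0.754% fell. TAGLN, an actin binding protein, rose by 1.63, the transcription factor SOX4 by 1.61 and the basement membrane collagens COL4A1 and COL4A2 by 1.56 and 1.09. FSTL3, a secreted activin antagonist, rose by 1.15 and the fibrillar collagen COL5A1 by 1.07. SMAD7, the inhibitory SMAD, rose by 0.64 ± 0.12 (SE, adjusted p = 0.011). ADAM19 rose by 0.78 and CCN2 by 0.65, while CDC42EP3 (-0.49) and ZEB2 (-0.47) fell. Without the experiment term the calls of SMAD7, COL4A2, ADAM19, CCN2, CDC42EP3 and ZEB2 were lost (limma, adjusted p from 0.087 to 0.91). That of ZEB2 was also lost with quantile normalization (adjusted p = 0.063) and with each array centred on its median (adjusted p = 0.055). The call of CCN2 was lost in 10 and that of ZEB2 in 11 of the 24 fits that left out an array. Of 25 ligands, receptors and SMADs, 3 rose and 0 fell: SMURF1 by 0.44, TGFB1 by 0.35 and FKBP1A by 0.20. The calls of TGFB1 and FKBP1A were lost in 11 and 8 of those fits. With the median over a gene's probe sets, COL5A1 was at 0.42 (adjusted p = 0.18), CDC42EP3 at -0.44 (adjusted p = 0.15), TGFB1 at 0.11 (adjusted p = 0.62) and FKBP1A at 0.26 (adjusted p = 0.22), which ends these calls. Between the lines over all conditions, 6 of these 25 were higher in Rab25 cells, among them ENG (0.46), TGFB1 (0.39) and LTBP3 (0.37), and 5 were lower, among them TGFB2 (-1.72), LTBP1 (-0.60) and SMAD5 (-0.48). The ENG call was lost in 14 of the 24 fits and with the probe set median (0.36, adjusted p = 0.082). Of the 66 target genes 12 were higher and 24 lower, SMAD7 at -0.58 among them, against 9.14% of all genes higher and 15.5% lower.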

How the data were processed

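Total RNA of 24 cell samples was hybridised to 1-colour Affymetrix arrays. The authors deposited log2 values per probe set, 22930 in all, 524 of them controls. MAS5 and RMA are named in the submitters' processing notes without version, role or order, so background correction and normalization are not given step by step in the sources used here. By GEO's platform annotation 19415 probe sets had 1 symbol, 125 had several and 2866 had none. Each of 11940 genes was read from its probe set of highest overall mean. The number of arrays limits the precision.

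These values were fitted by lmFit and eBayes of limma (version 3.58.1, R 4.3.3), with the 10 line and treatment groups and the experiment as a term (the replicate block), and with treatment by experiment terms where experiments were compared. The experiment, taken from the replicate numbers in the titles, pairs the arrays: the deviations of 45 pairs of groups correlated at a median r of 0.66 (0.09 to 0.86). Adjusted p-values are Benjamini-Hochberg over all genes, with a threshold of 0.05. The fit was tested on simulated data. Alternatives were quantile normalization, median centring, the probe set median, leaving out the lowest 40% of genes, array weights, no replicate block, single experiments and leaving out single arrays. The set without both Rab25 FBS arrays, the FBS response between experiments and further probe sets of NEDD9 and SKIL were added after seeing the data. The members and lists were chosen with earlier results of these data known. All 9 members are described. Named of the other lists were SMAD7, up to 8 called rises and 4 falls of the target list with TGF beta, called ligands, receptors and SMADs (up to 4 each way with TGF beta and 3 each way between lines), and the 6 genes most correlated with the members' mean.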

Additional observations from a re-analysis of the deposited data

Results flagged for a closer look

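Responses that differed between the experiments by limma's test of the difference itself are listed here, all as experiment 2 minus experiment 1 on the log2 scale. With TGF beta they were those of DACT1 (1.42) and TGFBI (-0.73). With FBS they were those of PMEPA1 (0.95), FAP (-1.68), TGFBI (-0.94) and SERPINE2 (0.87).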

How the results depend on the processing

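Without the replicate block the calls over all genes were 1665 against 2944 for the lines over all conditions, 730 against 1767 for starved lines, 34 against 273 for the lines with TGF beta, 55 against 191 for TGF beta, 10 against 323 for IGF and 396 against 2057 for FBS. The members called were then 1 against 4 in starved lines, 0 against 2 with TGF beta and 0 against 3 for FBS, and the other TGF beta targets called 5 against 14. With array weights the calls were 3273 for starved lines, 40 against 0 for EGF, 796 for IGF, 367 for FBS and 11 against 25 for the FBS response between lines, with 1 member each for IGF (against 0) and FBS (against 3). With median centring, which moved the median of all genes by up to 0.11, 1 member was called between lines with TGF beta, and 2 genes for EGF and 41 for the FBS response between lines. Quantile normalization gave 38 there, and leaving out the lowest 40% of genes, DACT1 among them, gave 3, with 1 member for IGF and 1 against 2 for the TGF beta response between experiments. The probe set median gave 4 members there, with NEDD9 and SKIL besides DACT1 and TGFBI, and SKIL in the opposite direction to its main value. Without both Rab25 FBS arrays the calls were 515 for IGF (1 member) and, from pcDNA cells alone, 1243 for FBS (1 member). With TGF beta, SKIL turned to -0.045 in experiment 2 alone. Leaving out each array gave 0 to 4 genes for EGF, 52 to 515 for IGF (0 to 1 members), 757 to 3181 for FBS (1 to 3 members), 38 to 388 for lines with TGF beta (0 to 2 members), 55 to 238 for TGF beta (7 to 15 other targets), 0 to 17 for the TGF beta and 16 to 202 for the FBS response between lines, 7 to 85 for the TGF beta response between experiments (0 to 2 members), 3 to 5 members for starved cells and 1530 to 2712 genes for the FBS response between experiments, and -0.12 to 0.52 for SKIL with TGF beta. The causes were not tested. The number of arrays, 2 treated ones per line, limits the precision of differences in response.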
